A study of Mus musculus with 4 samples.

Results

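The expression of 9 complement genes, C1qa, C1qb, C1qc, C1ra, C1s1, C3, C4b, C6 and Cfb, was examined in CD11b+Ly6g+ MDSCs (myeloid-derived suppressor cells) from the lungs of mice with a pre-metastatic niche (PMN), the tissue state that precedes the arrival of metastases. The genes were taken by symbol from the deposited table of read counts. All 9 were found among its 54532 genes and all 9 passed the filter of at least 10 counts in at least 1 library, as did 16369 genes in all.

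The 4 libraries, 1 for each group, were each made from cells pooled from 10 to 12 C57BL/6 mice aged 6 to 8 weeks. Every group, controls included, received melanoma-conditioned medium (MCM, medium in which B16F10 mouse melanoma cells had grown) at 300 μl per mouse for 10 days and 100000 B16F10 cells into the tail vein at day 7, and lungs were taken on day 10. Ctrl mice received no peptide. TP5 mice received thymopentin, an immunomodulatory pentapeptide. FR17 mice received TP5 joined to a sequence that MMP2 cleaves and that then assembles into a sheet in the lung, and sFD17 mice received the same design with the pentapeptide scrambled, which assembles but lacks the activity of TP5. Each peptide was given under the skin at 40 μM/kg daily from day 3. No library from mice without MCM was analysed here, so the values below compare peptides within the niche model.

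Complement is a cascade of blood and tissue proteins that tags targets and clears them. In the classical pathway C1q, built from the A, B and C chains, recognises its target and activates the proteases C1r and C1s, which cleave C4 and C2. C3 is the protein on which the classical, lectin and alternative pathways converge, factor B forms the alternative pathway's C3 convertase, and C6 is a subunit of the membrane attack complex. The liver makes most circulating complement, whereas C1q comes mainly from macrophages and dendritic cells, and fibroblasts and other stromal cells are known local sources of C1r, C1s, C3 and C4.

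The 3 C1q genes lie side by side on the minus strand of chromosome 4 in GRCm38. C1qb (ENSMUSG00000036905) spans chr4:136880129-136886187, C1qc (ENSMUSG00000036896) chr4:136889804-136893065 and C1qa (ENSMUSG00000036887) chr4:136895917-136898803. C1ra (ENSMUSG00000055172, chr6:124512405-124523443, plus strand) and C1s1 (ENSMUSG00000038521, chr6:124530345-124542359, minus strand) are neighbours on chromosome 6. C4b (ENSMUSG00000073418, chr17:34728380-34743882), Cfb (ENSMUSG00000090231, chr17:34856374-34862518) and C3 (ENSMUSG00000024164, chr17:57203970-57228136) lie on the minus strand of chromosome 17, and C6 (ENSMUSG00000022181, chr15:4727175-4814967) on the plus strand of chromosome 15.

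RefSeq promoters of the GRCm38.p6 assembly were at hand for 6 members, C1qb, C1qc, C1ra, C1s1, C3 and C6, and not for C1qa, C4b and Cfb. The stretches before the start sites of C1qb, C1qc and C3 are shown because C1qb and C1qc differed alike between libraries and C3 differently. Capitals mark GAGGAA, the core bound by the macrophage factor PU.1 (TTCCTC on the other strand), in the C1q promoters, and TTGCNNAA (TTNNGCAA on the other strand), a C/EBP-type sequence, in that of C3. For C1qc the bases that the deposited coordinates place inside the gene are left out. The RefSeq start site of C1qc, chr4:136892914, lies among the bases left out, so the stretch shown stops short of it.
C1qb, chr4:136886201-136886450, minus strand: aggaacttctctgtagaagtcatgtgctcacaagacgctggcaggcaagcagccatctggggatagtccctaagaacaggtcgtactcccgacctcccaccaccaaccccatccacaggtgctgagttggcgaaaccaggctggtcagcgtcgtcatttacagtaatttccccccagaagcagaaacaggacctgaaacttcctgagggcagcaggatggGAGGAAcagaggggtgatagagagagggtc
C1qc, chr4:136893066-136893164, minus strand: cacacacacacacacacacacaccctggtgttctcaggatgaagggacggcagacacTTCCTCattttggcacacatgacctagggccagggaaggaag
C3, chr17:57228137-57228386, minus strand: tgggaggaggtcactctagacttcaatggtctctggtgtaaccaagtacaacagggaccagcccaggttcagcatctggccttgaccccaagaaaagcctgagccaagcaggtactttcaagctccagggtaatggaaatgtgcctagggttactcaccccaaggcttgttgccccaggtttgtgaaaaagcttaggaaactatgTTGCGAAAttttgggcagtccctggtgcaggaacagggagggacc

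The match began 30 bases before the RefSeq start site in C1qb, 193 bases before it in C1qc and 45 bases before it in C3. Such letters are common. On either strand, GAGGAA stood in 28.3% of 32851 promoters of 300 bases (250 before and 50 after the start site) and TTGCNNAA in 10.8%. TTCNNNGAA, the gamma-activated site, which reads the same on both strands, stood in 8.30% of promoters and was found in C1ra, from base 33 after the start, where GAGGAA (from base 45, as TTCCTC) and TTGCNNAA (from base 17, as TTATGCAA) were found as well. TTGCNNAA was also matched 242 bases before the first of the 2 start sites of C1s1, as TTAGGCAA. C6 held none of these motifs. The motifs were chosen after the sequences were seen, and a match is a string of letters, not a site shown to be bound.

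The libraries held between 15543071 and 19638228 counts on genes. Values below were scaled by TMM, which sets libraries to a common level from the bulk of their genes, and are given as CPM (counts scaled to a common library total) or, between genes, as CPM per kilobase of exon (RPKM). Each group being 1 library, replicate error is unknown, a difference has no replicate check and the differences are described by their size. Intervals are 95% intervals of counting error alone, and reads without molecular identifiers are not independent molecules. A gene was called higher or lower at a 2-fold difference. The share of all 16369 genes past that size in the same direction is given beside each count of members called with these settings. In sorted bulk cells, fewer cells of a type and less RNA per cell cannot be told apart.

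The sorting genes were present in every library, Itgam (CD11b) at 5711 to 6924 counts and Ly6g at 1234 to 2081 counts. The 15 neutrophil markers made up 3.55% to 3.97% of counts. Selection on Ly6g, a granulocyte marker, should leave out macrophages and fibroblasts. Genes of macrophages were nevertheless read in all libraries, and 17 markers of interstitial and resident macrophages, C1q not among them, took 0.697% of counts in Ctrl, 0.451% with TP5, 0.215% with sFD17 and 0.968% with FR17.

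Transcripts of C1q dominated the 9 genes in 3 of the 4 libraries. The 3 chains together had 34417 counts in Ctrl, 20213 with TP5, 8078 with sFD17 and 55647 with FR17, or 2039, 1153, 613 and 2426 CPM. The sFD17 library was lowest and the FR17 library highest. Against Ctrl the summed level was 0.566 times as high with TP5 (interval 0.556 to 0.575), 0.300 times with sFD17 (0.293 to 0.308) and 1.19 times with FR17 (1.17 to 1.21). FR17 held 3.96 times the summed level of sFD17 (3.87 to 4.05), the other assembling peptide, and 2.10 times that of TP5 (2.07 to 2.14), the free form of its active pentapeptide.

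C1qa, which encodes the A chain, was read 12261 times in Ctrl, 7170 with TP5, 2843 with sFD17 and 20563 with FR17. C1qb, the B chain, had 11644, 7191, 2981 and 19262 counts in the same order. C1qc, the C chain, had 10512, 5852, 2254 and 15822. All 3 chains kept 1 order of libraries in CPM, with sFD17 lowest, then TP5, Ctrl and FR17. No counting intervals of neighbouring libraries overlapped. Log2 fold changes against Ctrl lay between -0.90 and -0.75 in TP5, all short of 2-fold, between -1.86 and -1.61 in sFD17, all past it, and between 0.15 and 0.30 in FR17.

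Per length, C1qa and C1qb were among the most abundant transcripts of these libraries. C1qa stood at 699 RPKM in Ctrl, 393 with TP5, 207 with sFD17 and 862 with FR17, which was rank 67, 116, 308 and 41 of 16369 genes. C1qc was lower at 323, 173, 88.5 and 357 RPKM. The B chain lay close to the A chain, at 634, 377, 208 and 772 RPKM, and in TP5 and sFD17 the intervals of both overlapped.

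**Figure D1:**
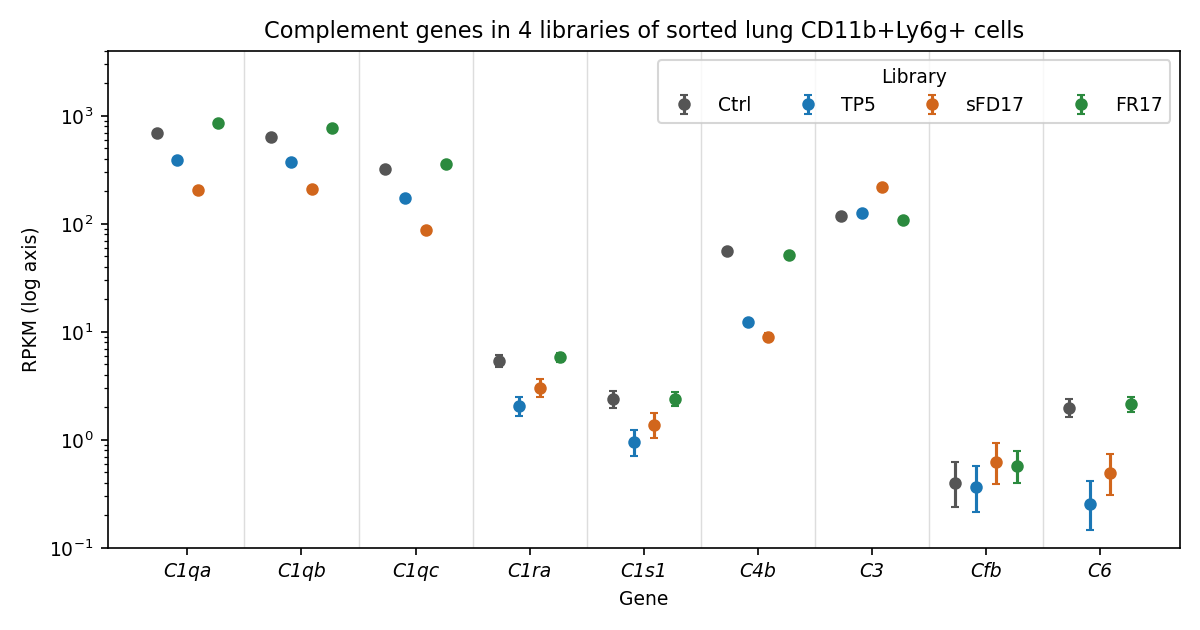
RPKM (log axis) of the 9 complement genes in the Ctrl, TP5, sFD17 and FR17 libraries, 1 point per library, with bars for the 95% counting interval. The C1q chains, C4b, C1ra, C1s1 and C6 are lower in TP5 and sFD17 than in Ctrl and FR17, and C3 is highest in sFD17 at 221 RPKM.

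Ratios of chains within a library do not depend on scaling between libraries. There were 0.9497 C1qb counts per C1qa count in Ctrl (interval 0.926 to 0.974), 1.00 with TP5 (0.971 to 1.04), 1.05 with sFD17 (0.996 to 1.10) and 0.937 with FR17 (0.918 to 0.955). For C1qc the ratios to C1qa were 0.857 in Ctrl (0.835 to 0.880), 0.816 with TP5 (0.788 to 0.845), 0.793 with sFD17 (0.750 to 0.838) and 0.769 with FR17 (0.754 to 0.786). The chains thus stayed near 1 proportion while their level moved about 4-fold, with small shifts that exceeded counting error between some libraries.

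Genes of the C1 proteases formed a different pattern. C1ra, which encodes C1r, had 271 counts in Ctrl, 107 with TP5, 119 with sFD17 and 398 with FR17. C1s1, which encodes C1s, had 126, 52, 57 and 172. Both were lowest in TP5 in CPM, whereas C1q was lowest in sFD17, and Ctrl and FR17 had overlapping intervals for both genes. Against Ctrl, C1ra differed by -1.38 on the log2 scale in TP5 (-1.73 to -1.07) and -0.82 in sFD17 (-1.15 to -0.52), and C1s1 by -1.30 (-1.83 to -0.85) and -0.77 (-1.27 to -0.33).

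C1s1 counts per C1ra count were 0.465, 0.486, 0.479 and 0.432 in Ctrl, TP5, sFD17 and FR17, with overlapping intervals in all 4 libraries. Both proteases were rare, at 0.95 to 5.82 RPKM. Each has a near-identical neighbour, and 48.0% of the 50-base windows of C1ra transcripts also occur in C1rb and 21.8% of those of C1s1 in C1s2. The copies were read 0 to 2 times per library, and reads that fit both copies may have been left out of either.

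C4b, the C4 gene whose product is split by C1s, held some of the largest differences of the 9. It was read 5421 times in Ctrl, 1225 with TP5, 675 with sFD17 and 6782 with FR17, or 321, 69.9, 51.2 and 296 CPM. Ctrl and FR17 were close, and both were several times higher than TP5 and sFD17. C4b was 4.59-fold lower in TP5 than in Ctrl (log2 -2.20, interval -2.29 to -2.11) and 6.26-fold lower in sFD17 (log2 -2.65, -2.77 to -2.53). In FR17 the log2 fold change was -0.12 (-0.17 to -0.07).

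By length C4b stood at 56.4 RPKM in Ctrl and 51.9 in FR17, rank 885 and 853, but at 12.3 in TP5 and 8.99 in sFD17, rank 3326 and 4168. Its paralog C4a, with which 34.6% of the windows of C4b are shared, had 19, 45, 22 and 31 counts in Ctrl, TP5, sFD17 and FR17. C4b did not keep a fixed ratio to C1q. There were 0.442 C4b counts per C1qa count in Ctrl, 0.171 with TP5, 0.237 with sFD17 and 0.330 with FR17, so that C4b was reduced relative to C1qa most in TP5.

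C3 did not share this pattern. It had 10141 counts in Ctrl, 11228 with TP5, 14975 with sFD17 and 12679 with FR17, or 601, 641, 1136 and 553 CPM. The sFD17 library stood above the other 3, which lay within a narrow range. The log2 fold change against Ctrl was 0.92 in sFD17 (0.88 to 0.95), just short of 2-fold, 0.09 in TP5 (0.05 to 0.13) and -0.12 in FR17 (-0.16 to -0.08). Between the assembling peptides C3 was 2.05-fold lower in FR17 than in sFD17 (log2 -1.04, -1.073 to -1.004). That call was lost with library size alone in place of TMM (-0.58) and with no filter on low counts (-0.93).

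The balance of the members therefore differed by library. C3 counts per C4b count were 1.87 in Ctrl, 9.17 with TP5, 22.2 with sFD17 and 1.87 with FR17. Of all counts on the 9 genes, C1q took 68.1% in Ctrl, 61.5% with TP5, 33.7% with sFD17 and 73.3% with FR17, and C3 took 20.1%, 34.2%, 62.5% and 16.7%. Per length C3 was the leading member only in sFD17, at 221 RPKM against 208 for C1qb and 207 for C1qa, with an interval of 217 to 224 that lay above both. In the other libraries it came after all 3 chains.

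**Figure D2:**
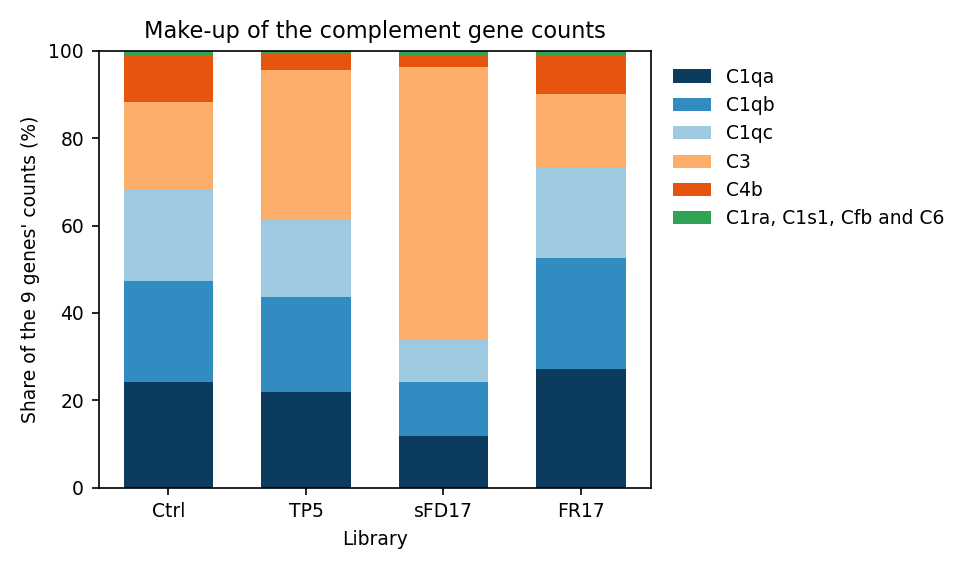
Share of the 9 genes' summed counts (%) taken by each gene in each library, as stacked bars, with the 4 rarest genes together. C3 takes 62.5% in sFD17 and 16.7% to 34.2% in the other libraries, and the C1q chains take the largest part in those.

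Cfb, factor B, was near the lower limit of what these libraries could measure. It had 19 counts in Ctrl, 18 with TP5, 23 with sFD17 and 37 with FR17. All intervals against Ctrl spanned 0 on the log2 scale, from -1.15 to 0.88 in TP5, -0.31 to 1.59 in sFD17 and -0.32 to 1.40 in FR17, so a difference of Cfb was not detectable at this depth. Of its 2825 exon bases 2246 also lie, on the same strand, in the exons of the annotated gene Gm20547, which had 0 counts, and reads that fit both may have been left out.

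C6 was rare as well, but its groups were far apart. It was read 119 times in Ctrl, 16 with TP5, 23 with sFD17 and 174 with FR17, or 7.05, 0.91, 1.74 and 7.59 CPM. Ctrl and FR17 overlapped, TP5 and sFD17 overlapped, and the pairs were apart. C6 was 6.98-fold lower in TP5 than in Ctrl (log2 -2.80, interval -3.80 to -2.19) and 3.86-fold lower in sFD17 (log2 -1.95, -2.73 to -1.36). With 16 counts in the lowest library, the size of the difference was known only within wide limits.

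**Figure D3:**
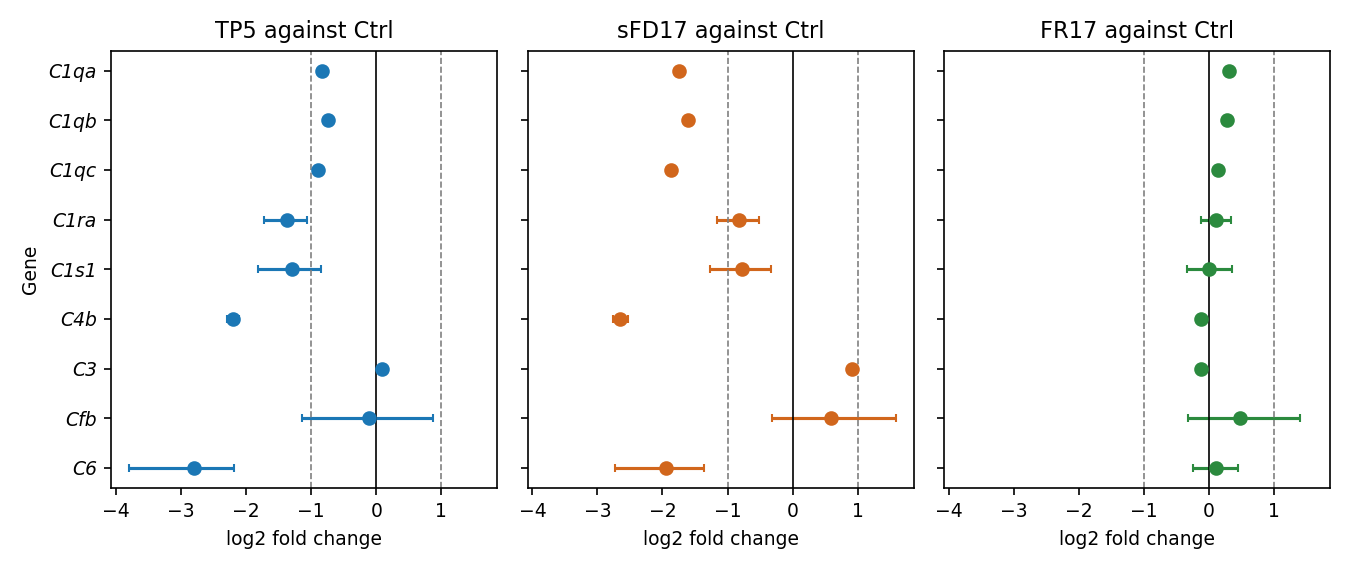
Log2 fold change of the 9 genes against Ctrl in TP5, sFD17 and FR17, 1 panel per peptide, with bars for the 95% counting interval and dashed lines at 2-fold. 4 genes are past 2-fold lower in TP5 and 5 in sFD17, and in FR17 all points lie between -0.12 and 0.48.

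Counted over the members, TP5 had 4 genes called lower than in Ctrl, C1ra, C1s1, C4b and C6, beside 4.99% of all genes, and 0 called higher beside 3.2%. In sFD17 5 were called lower, the C1q chains, C4b and C6, beside 6.47% of all genes, and 0 higher beside 5.31%. In FR17 0 were called higher beside 3.92% and 0 lower beside 3.58%. The median log2 fold change of the 9 genes was -0.90 with TP5, -1.61 with sFD17 and 0.11 with FR17, where that of all genes was 0.00, -0.03 and 0.02. The 3 comparisons share the Ctrl library. The members are not independent of one another, since the C1q chains, and likewise C1ra and C1s1, differed together.

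The peptides were given at the same dose and times, which allowed 3 direct comparisons. FR17, which carries the TP5 sequence on the assembling peptide, had 7 members called higher than in free TP5, all but C3 and Cfb, beside 7.04% of all genes. The interval lay wholly past 2-fold for 5 of them, not for C1qb (from 0.99) and C1s1 (from 0.88). C6 was 7.50-fold and C4b 4.23-fold higher, and the C1q chains 2.05-fold to 2.19-fold. C3 differed by -0.21 on the log2 scale (-0.25 to -0.18).

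FR17 and sFD17, which differ in whether the pentapeptide is in the TP5 order or scrambled, were apart at 6 members. In FR17 5 were called higher beside 11.3% of all genes, the C1q chains, C4b and C6, and 1 lower beside 10.8%, C3. C4b was 5.77-fold higher in FR17 (log2 2.53, 2.42 to 2.65) and C1qa 4.16-fold (log2 2.06, 2.00 to 2.11). C1ra differed by 0.93 (0.64 to 1.25) and C1s1 by 0.78 (0.35 to 1.25), below the 2-fold limit. Both passed it with library size alone (1.39 and 1.23), and C1ra also with no filter (1.04), whereas C3 fell short under either setting. The interval for Cfb ran from -0.90 to 0.71.

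Between sFD17 and TP5, 0 members passed 2-fold in either direction beside 12.4% of all genes. The C1q chains were nevertheless lower in sFD17 by more than counting error, at -0.92 (-0.99 to -0.86) for C1qa, as was C4b at -0.45 (-0.59 to -0.31), and C1ra was higher at 0.56 (0.17 to 0.95). With library size alone the interval of C1ra spanned 0, at 0.29 (-0.09 to 0.69). C3 was higher in sFD17 at 0.83 (0.79 to 0.86). For C1s1, C6 and Cfb the intervals of the difference spanned 0, with upper ends at 1.11, 1.95 and 1.74, which leaves room for differences past 2-fold.

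Markers of other cells moved with several members. The summed level of the 17 interstitial and resident macrophage markers was 0.624 times that of Ctrl with TP5, 0.358 times with sFD17 and 1.17 times with FR17, where C1q was at 0.566, 0.300 and 1.19 times. None of the 17 was at 0 in any library, and 16 were lower than in Ctrl with TP5, 17 with sFD17 and 2 with FR17. Cd163, a haemoglobin scavenger receptor of these cells, stood at log2 fold changes of -1.04, -2.31 and 0.37 in TP5, sFD17 and FR17.

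Relative to these markers C1q varied less than in CPM. There were 0.288 C1q counts per marker count in Ctrl (interval 0.285 to 0.292), 0.261 with TP5 (0.257 to 0.265), 0.242 with sFD17 (0.236 to 0.248) and 0.293 with FR17 (0.290 to 0.296). Apoe alone gave 61643 of the 119491 marker counts in Ctrl, and without it, an alternative chosen after seeing the data, the ratios were 0.595, 0.596, 0.574 and 0.604. The range of C1q itself was wider, since it took 0.0520% of all counts in sFD17 and 0.283% in FR17. The 10 alveolar macrophage markers stood at 0.963 times Ctrl in TP5, 0.359 in sFD17 and 1.44 in FR17, sums in which Chil3 gave 45908 of 56739 counts in Ctrl. Gene by gene, 9 of 10 were lower than in Ctrl in TP5, with a median log2 fold change of -0.64, 10 in sFD17 and 0 in FR17. C1q per count of that list was 0.607, 0.356, 0.508 and 0.502 from Ctrl to FR17. Dendritic cell markers stood at 1.75, 1.05 and 1.38 times Ctrl. Whether the number of such cells in the sorted fraction set the level of C1q was not tested.

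C4b was less even on the same scale. It had 0.0454 counts per interstitial and resident macrophage marker count in Ctrl, 0.0158 with TP5, 0.0202 with sFD17 and 0.0357 with FR17. Per count of 13 fibroblast markers it had 0.466, 0.136, 0.0800 and 0.505. Neither list kept C4b at a constant ratio. Of the 4 lists compared with C4b the closest was that of 7 serosal macrophage markers, which stood at 0.284, 0.188 and 0.693 times Ctrl in TP5, sFD17 and FR17, and C4b per count of that list was 0.824 in Ctrl, 0.631 with TP5, 0.697 with sFD17 and 1.09 with FR17. Prg4 and Alox15 gave 3226 and 2267 of the 6581 counts of that list in Ctrl, and its members ranged in sFD17 from -3.82 to -0.09 on the log2 scale, where C4b was at -2.65. The list was picked out after these values were seen, and its part in the result was not tested.

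Fibroblast markers were lower than in Ctrl for 13 of 13 genes with TP5, 11 with sFD17 and 6 with FR17, with median log2 fold changes of -0.86, -0.52 and 0.02. As a sum, of which Pi16 alone gave 6390 of 11645 counts in Ctrl, the list stood at 0.747, 0.927 and 0.848 times Ctrl, and no fibroblast marker was at 0 in any library. C1ra and C1s1 had values of -1.38 to -0.77 in TP5 and sFD17. Per fibroblast marker count, C1ra had 0.0233 counts in Ctrl, 0.0118 with TP5, 0.0141 with sFD17 and 0.0296 with FR17. C1s1 had 0.0108, 0.00575, 0.00675 and 0.0128, so neither ratio was constant. Endothelial markers were lower than in Ctrl for 8 of 8 genes with TP5, 5 with sFD17 and 0 with FR17. Their medians were -0.81, -0.02 and 0.49. The part of either list in the levels of C1ra and C1s1 was not tested. Mesothelial markers, 5 of 6 of which passed the filter, summed to 0.638, 0.259 and 1.64 times Ctrl, with 1 at 0 in Ctrl and in TP5. Krt19 alone gave 692 of 752 of these counts in Ctrl, and in sFD17 the median log2 fold change of the 5 genes was -0.09, with 2 higher and 3 lower. Hepatocyte markers, which would mark liver RNA, summed to 1 to 8 counts per library with 3 or 4 of 5 at 0, and none passed the filter.

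**Figure D4:**
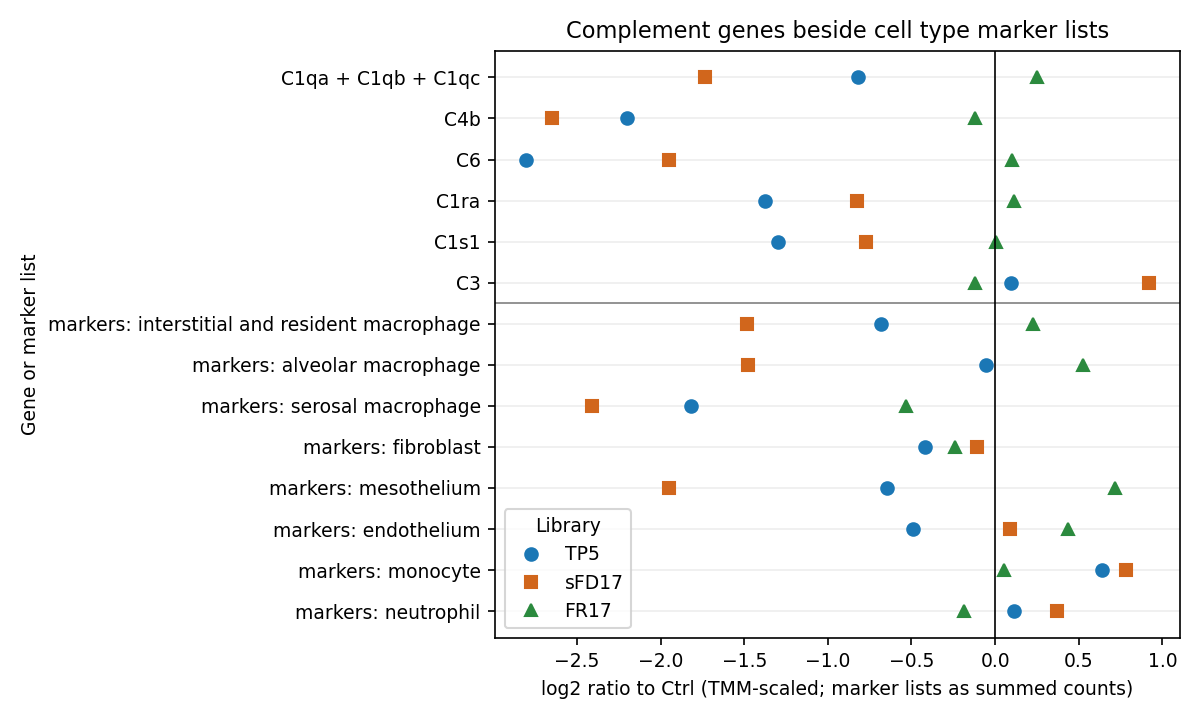
Log2 ratio to Ctrl of the summed C1q chains and 5 other members (above the line) and of summed cell type marker lists (below it) in TP5, sFD17 and FR17. C1q lies close to the interstitial and resident macrophage markers in all 3 libraries, and C3 lies on the other side of 0 in sFD17, at 0.92.

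C3 went with none of the macrophage lists. It had 0.0849 counts per interstitial and resident macrophage marker count in Ctrl, 0.145 with TP5, 0.448 with sFD17 and 0.0667 with FR17. In sFD17, where C3 was highest, 10 of 18 genes of the interferon-γ response were called higher than in Ctrl, beside 5.31% of all genes, and 0 lower, beside 6.47%, with a median log2 fold change of 1.26. The medians were -0.39 in TP5 and -0.18 in FR17. Neutrophil markers stood at 1.29 times Ctrl in sFD17 and monocyte markers at 1.72 times. Alveolar type 2 markers stood at 1.34 times, with 5 of 8 genes higher, 3 lower and a median log2 fold change of 0.40. Napsa gave 1869 of the 3801 counts of that list in Ctrl. Airway and alveolar type 1 markers stood at 2.13 times, with 5 of 6 higher and a median of 0.61. Scgb1a1 alone gave 9541 of the 10910 counts of this list in Ctrl. Monocyte markers were also at 1.56 times Ctrl in TP5, with 7 of 7 higher, and airway and alveolar type 1 markers at 1.52 times, where C3 was near its Ctrl level. The part of these in the level of C3 was not tested.

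Genes with the most similar pattern were sought among 10186 protein-coding genes with at least 50 Ctrl counts, by the root mean square difference of the 3 log2 fold changes against Ctrl. This measure has 3 values per gene, all sharing Ctrl, and describes these libraries only. C1qa was nearest to Clec10a (0.05), Gdf15 (0.08) and Selenop (0.08), C1qb to Ccl2 and Clec10a, and C1qc to Selenop (0.04), Chp2 and Hpgds. Selenop, selenoprotein P and 1 of the 17 macrophage markers, had log2 values of -0.88, -1.81 and 0.19 in TP5, sFD17 and FR17. Between C1qa and C1qb the difference was 0.09.

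C1ra was nearest to Cyr61 (0.07), a matrix-associated signalling protein, Serping1 (0.15) and Dpt (0.17), and C1s1 to Cyr61 (0.13), Abca8a (0.14) and Serping1 (0.15), while C1ra and C1s1 were 0.08 from each other. C4b was nearest to Mb21d2 (0.12), Pla2g2d (0.14), a secreted phospholipase, and Tln2 (0.18). C6 had no close neighbour, since Slc10a6, Ptgis and Epor stood at 0.31, 0.52 and 0.52. C3 was nearest to Tmem67 (0.02), Vasn (0.05) and Rps6ka4 (0.05), and was 2.45 from C4b.

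Of 54 other complement genes, 27 passed the filter, and the rest had at most 8 counts in any library. Among the 27, TP5 had 2 called higher and 5 lower than in Ctrl, sFD17 2 and 5, and FR17 2 and 0, beside the shares of all genes given above. The medians were -0.20, 0.02 and 0.02. The liver proteins Mbl1, Mbl2, Cfi, C4bp and C9 had 0 counts in every library. Of the terminal pathway, Hc had 29, 29, 33 and 59 counts in Ctrl, TP5, sFD17 and FR17, and C8g had 24, 28, 19 and 21.

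In the lectin pathway, which recognises sugars, Fcna, ficolin A, made by macrophages, had 1060 counts in Ctrl, 253 with TP5, 74 with sFD17 and 1420 with FR17. The log2 fold changes were -2.11 (-2.32 to -1.92), -3.46 (-3.84 to -3.14) and -0.02 (-0.14 to 0.10). Fcnb, ficolin B, stored by myeloid cells, went the other way with 156, 510, 296 and 388 counts, and was lowest in Ctrl (log2 1.64, 1.27 and 0.86). Colec12, a scavenger receptor of the collectin family, had 391, 136, 83 and 659 counts, with log2 values of -1.56, -1.86 and 0.31.

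Among regulators and receptors, Serping1, the C1 inhibitor that inactivates C1r and C1s, had 337, 139, 175 and 517 counts in Ctrl, TP5, sFD17 and FR17 and was called lower in TP5 alone (log2 -1.32, -0.59 and 0.17). Vsig4, a macrophage receptor for C3 fragments that is also among the serosal macrophage markers, had 121, 20, 13 and 82 counts (log2 -2.54, -2.73 and -0.98).

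C3ar1, the C3a receptor, had 1664, 1245, 470 and 2330 counts and was called lower in sFD17 (log2 -1.47). C2, the second substrate of C1s, had 24, 11, 12 and 78 counts and was called higher in FR17 (log2 1.19, interval 0.58 to 1.98) and lower in TP5 (log2 -1.05, -2.36 to -0.10). Of its 3872 exon bases 1656 also lie in Gm20547. Itgb2, the β chain of the C3 fragment receptors and the most abundant receptor gene per length, had 23654, 24759, 23423 and 26203 counts. Its log2 fold changes were 0.01, 0.34 and -0.29, below 2-fold in every library.

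Among the other leading genes of their roles, Cfp, properdin, stabiliser of the alternative convertase, stood at log2 fold changes of -0.24, -0.48 and 0.01 in TP5, sFD17 and FR17. Cr1l, a membrane brake on the C3 convertases, had -0.17, -0.15 and -0.21, C1rl -0.19, 0.35 and -0.35, and C7, the partner of C6 in the membrane attack complex, -0.63, -0.29 and 0.02. C7 had 116, 77, 74 and 160 counts and was short of 2-fold where C6 was past it. None of these 4 genes was called in any of the 3 libraries.

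**Figure D5:**
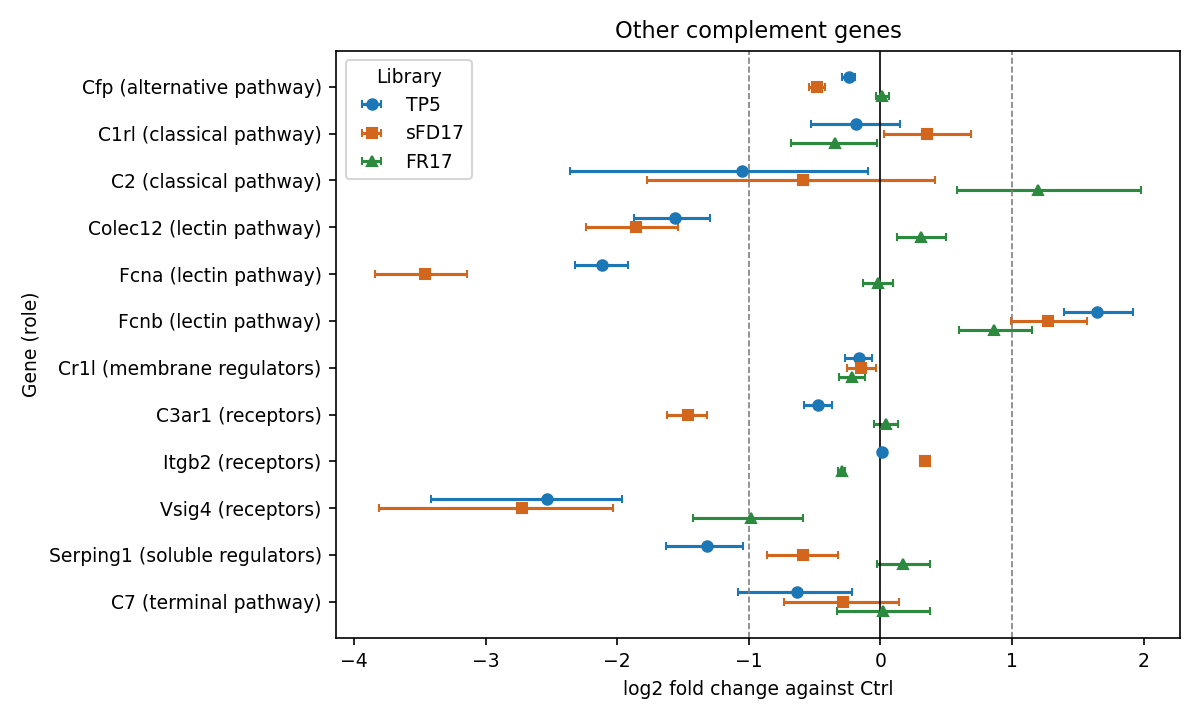
Log2 fold change against Ctrl of the other complement genes named, in TP5, sFD17 and FR17, with 95% counting intervals and dashed lines at 2-fold. Fcna, Colec12 and Vsig4 are lower in TP5 and sFD17, Fcnb is higher in all 3 libraries, and Itgb2, Cfp, Cr1l, C1rl and C7 lie inside the lines.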

How the data were processed

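Messenger RNA was measured in 4 libraries, 1 per group, and the authors deposited unscaled counts of reads on each gene, with coordinates and exon lengths. Whether reads were counted by strand is not given in the sources used here, and neither is read length. According to the submitters' processing notes, HISAT2 2.0.5, StringTie 1.3.3b, featureCounts 1.5.0-p3 and edgeR 3.18.1 were used with GRCm38.p6. Of 54532 identifiers, 54495 were found in GENCODE M21, and the members' coordinates were the same there.

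TMM factors (0.849 to 1.17), CPM and log2 fold changes (prior count 2) were computed with edgeR 4.0.16 in R 4.3.3 for genes that reached 10 counts in 1 or more libraries. Levels are counts over the TMM-scaled library size, per kilobase of exon for RPKM. A call is a difference of at least 2-fold. Intervals are exact binomial for ratios of counts and exact Poisson for levels. A floor of 3 counts corresponds to 0.131 to 0.228 CPM. The procedure was run on simulated counts with Poisson spread alone. They hold no variation between mice or sorts, so that run says nothing of such variation. DESeq2 1.42.0, pandas 2.3.3 and scipy 1.17.1 were used as well.

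All 9 members are named. Other complement genes are named where they passed 2-fold against Ctrl with at least 50 counts in 1 of both libraries or led their role in summed counts, and so are the 3 genes nearest to each member with at least 50 Ctrl counts. Further genes were named after their values were seen, Mbl1, Mbl2, Cfi, C4bp, C9, Hc and C8g, as were the markers given as examples. The members and the lists were chosen with earlier results of these data known. Some genes that the naming rule selects are not reported here.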

Additional observations from a re-analysis of the deposited data

How the results depend on the processing

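With 1 library per group, the numbers above have no replicate error, and counting intervals understate the spread between mice or sorts. The intervals do not cover the choice of scaling either. With library size alone in place of TMM, 31 of 54 log2 fold changes of the members fell outside their interval, and with no filter 14. C1qa against Ctrl went from -1.75 to -1.97 in sFD17 and from 0.30 to 0.55 in FR17 with library size alone. No paired analysis was possible because each group is 1 library. Library size alone, in place of TMM, shifted the median log2 fold change of all genes by more than 0.1 in 5 of the 6 comparisons, to -0.23 in sFD17 and 0.26 in FR17 against Ctrl, to 0.17 in FR17 and -0.30 in sFD17 against TP5, and to 0.52 in FR17 against sFD17. The share of calls that were higher went from 45.1% to 27.4%, 52.2% to 77.6%, 71.0% to 83.6%, 54.4% to 30.1% and 51.1% to 84.3% in that order. Under it the members past 2-fold between sFD17 and TP5 went from 0 to 3, the C1q chains. Of all genes 709 were then called higher and 1646 lower. With no filter the members past 2-fold went to 1. With library size alone C3 and C4b in FR17 against Ctrl changed sign, to 0.13 each, and Cfb in FR17 against sFD17 to 0.33. C1s1 in FR17 against Ctrl changed to -0.0012 under DESeq2's size factors. None of these 4 values was past 2-fold. At 1.5-fold, 7 members passed in TP5 and 8 in sFD17 against Ctrl, and 6 in sFD17 against TP5. The shares of all genes at 1.5-fold, with no filter and by the tests below are not given here. The counts of members under these settings therefore have no such background. EdgeR's exact test and DESeq2's Wald test took their dispersion from the 4 libraries as 1 group, which have no replicates, so that their calls at an unadjusted p under 0.05 compare libraries and not conditions. The exact test called 5 members in FR17 against TP5 in place of 7. The Wald test called 1 member in TP5 and 3 in sFD17 against Ctrl, 2 in FR17 against TP5 and 3 in FR17 against sFD17. Members past 2-fold in FR17 against sFD17 stayed at 6 with no filter although C1ra replaced C3, and were 7 with library size alone, which added C1ra and C1s1 and lost C3. Under library size alone, 4209 of all genes were called higher in that comparison and 782 lower. For FR17 against Ctrl, where 0 members passed 2-fold, edgeR's exact test and DESeq2's test also called 0. The alternatives for the other complement genes were chosen after seeing the data. In FR17 against Ctrl their count of 2 became 4 with library size alone, 6 with no filter, 1 with at least 10 counts in every library, 7 at 1.5-fold, and 0 by edgeR's exact test, by DESeq2's test and where the interval had to lie past 2-fold. In sFD17 it went from 7 to 12 with no filter and to 3 by DESeq2's test, and in TP5 from 7 to 2 by DESeq2's test.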
